A study of Homo sapiens with 12 samples.

Results

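Death receptor signalling was followed through 10 genes, namely the ligand FASLG, the receptors FAS, TNFRSF10A, TNFRSF10B and TNFRSF1A, the adaptors FADD, TRADD, RIPK1 and DAXX, and the inhibitor CFLAR. They were chosen by name, and all 10 were found among the 60671 genes of the table. The 12 RNA-seq libraries were labelled as the human T cell leukemia line Jurkat and formed 4 groups of 3. Control cells carried a lentiviral GFP vector (NC, labelled WT), and PTPN21 cells carried a lentiviral construct in which the SFFV promoter drives FLAG-tagged PTPN21, a protein tyrosine phosphatase. Each kind of cell received either vincristine (VCR), a drug that blocks microtubule assembly, or DMSO, the solvent control, for 48 h. The groups are called NC+DMSO and NC+VCR for control cells, and PTPN21+DMSO and PTPN21+VCR for cells with the construct. The VCR dose of the sequenced cells is not given in the sources used here. Nothing in the labels says that replicates were separate cultures, so p-values measure only the spread between these libraries, which may be technical.

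Death receptors are surface proteins that carry a death domain on their inner side. On binding their ligand, FAS and the TRAIL receptors TNFRSF10A and TNFRSF10B recruit FADD, which brings in the initiator caspases CASP8 and CASP10, and CFLAR competes for the same site and blocks their activation. TNFRSF1A, the main TNF receptor, instead assembles TRADD and RIPK1 into a complex that first drives NF-kappaB and can later turn to cell death. DAXX was first described as a FAS-binding protein and is also known as a nuclear chaperone of the histone variant H3.3 together with ATRX.

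The upstream sequences of 3 members are shown because these genes stand for the 3 patterns described here, a gene with almost no RNA (FAS), a gene that doubled with VCR in control cells (TNFRSF1A) and an inhibitor known as an NF-kappaB target whose 3 NC+VCR libraries differed widely (CFLAR). Each run holds the 250 bases before a RefSeq transcription start on GRCh38.p14, read 5′ to 3′ on the gene's strand, at chr10:88990548-88990797 (plus strand) for FAS, chr12:6342077-6342326 (minus strand) for TNFRSF1A and chr2:201118466-201118715 (plus strand) for CFLAR. Capitals mark matches, on either strand, to the kappaB consensus, the AP-1 motif (TGANTCA), the ETS motif (CCGGAA) or the GC box (GGGCGG).
FAS: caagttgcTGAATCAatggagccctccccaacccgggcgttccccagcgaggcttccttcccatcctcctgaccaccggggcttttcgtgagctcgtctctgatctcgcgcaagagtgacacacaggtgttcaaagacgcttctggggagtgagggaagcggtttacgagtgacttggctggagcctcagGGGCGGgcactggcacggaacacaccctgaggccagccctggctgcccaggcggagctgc
TNFRSF1A: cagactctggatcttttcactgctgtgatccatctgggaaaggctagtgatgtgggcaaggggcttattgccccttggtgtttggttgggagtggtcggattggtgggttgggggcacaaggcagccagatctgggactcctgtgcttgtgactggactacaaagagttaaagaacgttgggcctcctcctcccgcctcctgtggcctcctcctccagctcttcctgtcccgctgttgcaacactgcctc
CFLAR: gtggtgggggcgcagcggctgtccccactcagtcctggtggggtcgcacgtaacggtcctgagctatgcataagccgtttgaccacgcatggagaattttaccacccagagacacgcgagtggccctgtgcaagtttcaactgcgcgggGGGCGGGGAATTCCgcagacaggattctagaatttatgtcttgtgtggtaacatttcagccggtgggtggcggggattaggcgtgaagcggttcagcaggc
The FAS window held an AP-1 match at base 9 and a GC box at base 191. The CFLAR window held a GC box at base 150 that overlapped a kappaB match at base 154. Both genes have further RefSeq starts, and only the first listed is printed. The window of another FAS start held a kappaB match at base 94, and those of the other CFLAR starts held none. None of the 4 motifs matched in the TNFRSF1A window. Over 35116 RefSeq windows of the same length, 9.96% held a kappaB match, 6.57% an AP-1 match, 14.5% an ETS match and 42.6% a GC box. RefSeq windows were examined for 6 of the 10 members, and sequences are shown for only 3 of these. Windows of the remaining members were not examined.

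The label was checked before the members were read, and most of its markers were missing. Of 8 T cell genes, 7 had a mean below 1 FPKM (fragments per kilobase of transcript scaled to the mapped fragments of the library), and LCK, CD28 and CD247 were at 0 in all 12 libraries. CD3D was the exception, at 61.8 to 139.7 FPKM. All 8 B cell precursor genes were below a mean of 1 FPKM, while 2 of 5 myeloid genes, LYZ and SPI1, were above it. A set of 8 globin and erythroid genes, chosen after their values were seen, was above it throughout. The globin and erythroid genes summed to 1386 to 2210 FPKM in NC+DMSO and 950.2 to 998.2 in NC+VCR, and to 3218 to 4456 in PTPN21+DMSO and 1172 to 1350 in PTPN21+VCR. These sums moved with both PTPN21 and VCR, and so with every comparison below, and their part in the members' values was not tested. The T cell sum, almost all of it CD3D, ran from 62.6 to 94.8 FPKM in NC+DMSO and from 107.3 to 141.7 over the other groups, and the myeloid sum from 21.0 to 23.6 in NC+DMSO, 24.3 to 26.6 in PTPN21+DMSO, 33.4 to 42.8 in NC+VCR and 27.4 to 35.9 in PTPN21+VCR. The B cell precursor sum stayed between 0.234 and 1.84 FPKM. PTPN21 itself followed its label, with 0.02 to 0.09 FPKM in NC+DMSO, 0.16 to 0.57 in NC+VCR, 7.93 to 10.5 in PTPN21+DMSO and 4.34 to 6.53 in PTPN21+VCR. Depth, estimated from the spacing of low values, was 14500000 to 17800000 fragments in the NC libraries and 20600000 to 23900000 in the PTPN21 libraries, so depth moved with PTPN21, and its part was not tested.

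**Figure D1:**
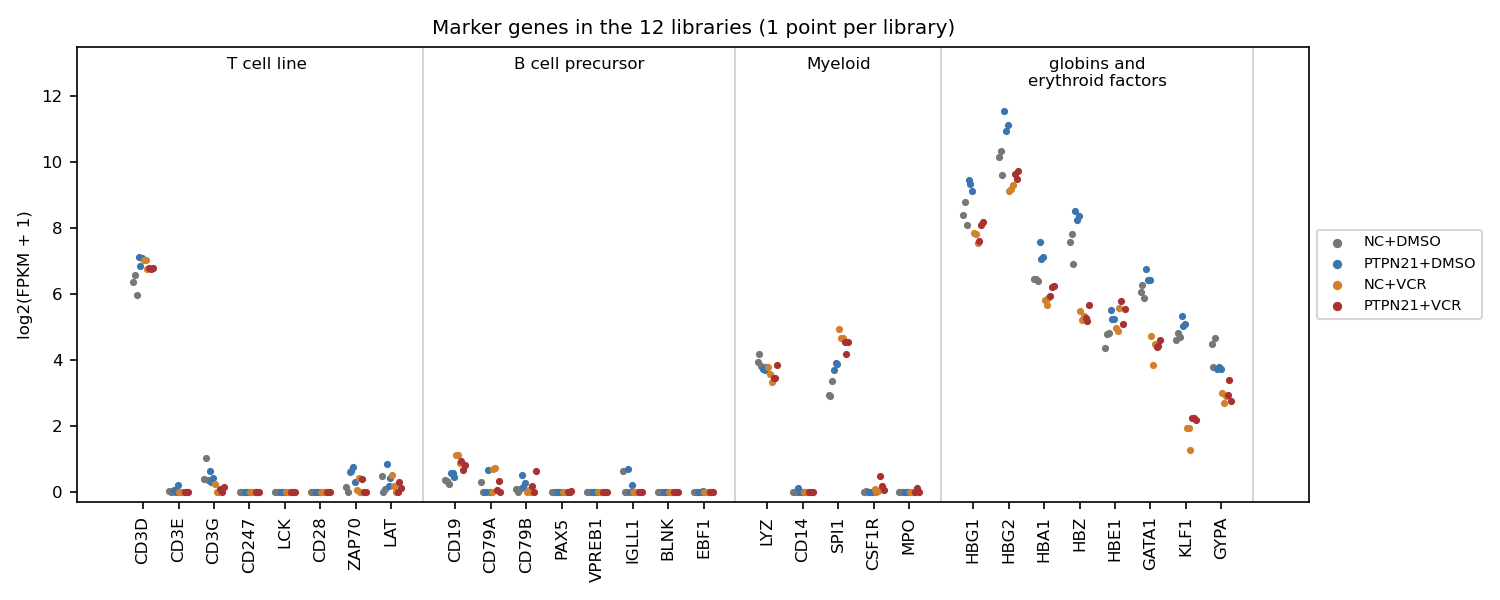
Each point is 1 library, placed at log2(FPKM + 1) on the vertical axis, for 29 marker genes grouped into 4 lists on the horizontal axis, with the 4 colours for the 4 groups. Only CD3D of the T cell list and LYZ and SPI1 of the myeloid list rise above the floor, whereas all 8 globin and erythroid genes do.

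The members spanned a wide range of levels. DAXX was the highest member in all 4 groups, with a mean between 60.5 FPKM in PTPN21+DMSO and 164.1 FPKM in NC+VCR, and its range never met that of the next member. In NC+DMSO it was followed by FADD (14.5 FPKM), CFLAR (13.3 FPKM), TNFRSF10A (11.6 FPKM), RIPK1 (9.38 FPKM), TNFRSF10B (7.46 FPKM), TNFRSF1A (4.72 FPKM) and TRADD (2.55 FPKM). Of these neighbours, FADD and CFLAR, CFLAR and TNFRSF10A, RIPK1 and TNFRSF10B, and TNFRSF10B and TNFRSF1A overlapped in their replicates. The exons of CFLAR cover 22529 bases over all annotated transcripts, and its FPKM depends on which of them the authors counted as its length. TRADD was the lowest of the 8 members with a mean of at least 1 FPKM, in every group. FASLG and FAS lay far below it and did not reach the level set for the test, so tests across genes cover 8 of the 10 members.

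The ligand and the receptor that give the FAS pathway its name were close to absent in these libraries. Most T cell markers of the Jurkat label were missing too, so this absence cannot be taken as a trait of that line. FAS, at chr10:88990582-89015785 on the plus strand, was listed at 0 in 10 of 12 libraries and at 0.054 FPKM in NC+DMSO replicate 3 and 0.053 FPKM in PTPN21+VCR replicate 1, about 3.34 and 4.6 fragments at the estimated depth. FASLG, which encodes the membrane-bound ligand of FAS, was listed above 0 in 5 libraries. Its values were 0.034, 0.066 and 0.12 FPKM in NC+DMSO, 0.023 FPKM in PTPN21+DMSO replicate 3 and 0.34 FPKM in NC+VCR replicate 1. In FPKM, all 3 libraries of NC+DMSO thus lay above those of PTPN21+DMSO, with an exact two-sided permutation p of 0.1, the smallest that 3 libraries against 3 allow. At the estimated depth, NC+DMSO replicate 1 and PTPN21+DMSO replicate 3 each held about 1.06 fragments of FASLG. These libraries therefore differed in FPKM and not in estimated fragments. In the other 3 comparisons of FASLG and all 4 of FAS the exact permutation p was 1. A test of this size cannot reach 0.05, so it says nothing of whether either gene differed.

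Among the other ligands only TNFSF10, which encodes TRAIL, was measured at a mean of at least 1 FPKM, at 0.38 to 3.8 FPKM over the 12 libraries, and it passed the test in none of the comparisons. TNF was listed at 0 throughout. The TRAIL decoy receptor genes TNFRSF10C and TNFRSF10D were likewise listed at 0 in all 12 libraries, which left TNFRSF10A and TNFRSF10B as the TRAIL receptors with RNA. Of 6 further ligands and 9 further receptors, 1 of each kind reached the test, and neither passed it.

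**Figure D2:**
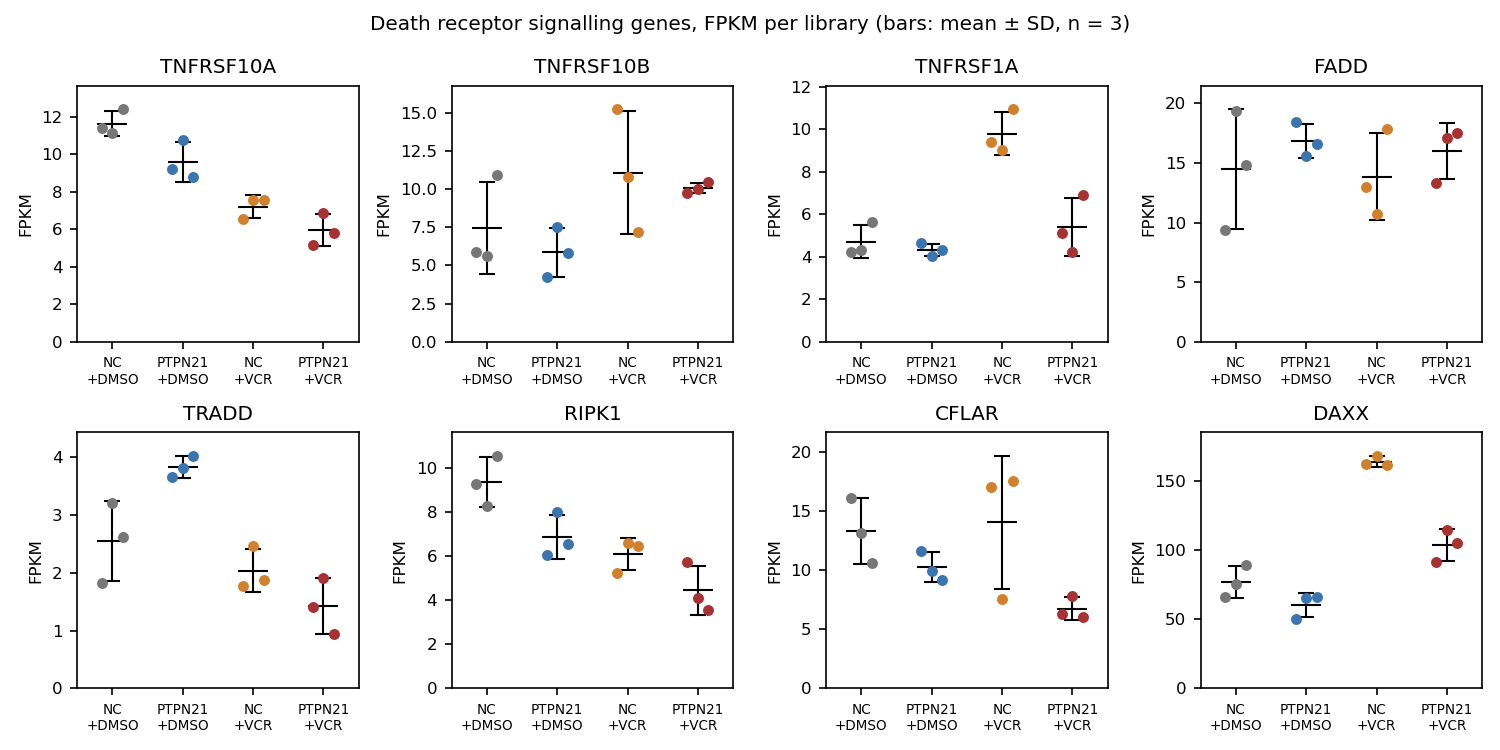
Each panel shows 1 of the 8 tested members, with FPKM on a vertical axis that starts at 0 and the 4 groups along the horizontal axis. Points are single libraries and bars are the mean ± SD (n = 3). DAXX and TNFRSF1A stand highest in NC+VCR, TNFRSF10A is lower in both VCR groups, and CFLAR has 1 low library in NC+VCR, at 7.55 FPKM.

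To examine what VCR did in control cells, NC+VCR was compared with NC+DMSO. DAXX and TNFRSF1A rose about 2.13-fold and 2.07-fold, TNFRSF10A and RIPK1 fell to 0.620 and 0.652 of their control means, and TNFRSF10B, FADD, TRADD and CFLAR did not pass the test. The 4 members that passed, of 8 tested, stood against 36.2% of all 11591 genes tested, of which 7.91% were higher and 28.3% lower. Groups did not overlap in 4 of the 8, and in 44.1% of all genes. The median log2 fold change of the 8 members was -0.01 against -0.36 over all genes. The test was limma on log2(FPKM + 1), with Benjamini-Hochberg adjustment over all genes tested, and fold changes on this scale understate those of low genes. In bulk RNA, fewer cells that express a gene and less RNA per cell cannot be told apart.

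DAXX, at chr6:33318558-33323016 on the minus strand, read 66.2, 75.4 and 89.2 FPKM in NC+DMSO and 162.5, 168.3 and 161.5 FPKM in NC+VCR. The groups did not overlap, and the 3 VCR libraries lay closer together than the controls. The log2 fold change was 1.09 (SE 0.14, adjusted p = 0.000181). TNFRSF1A, at chr12:6328757-6342114 on the minus strand, read 4.20, 4.33 and 5.61 FPKM in NC+DMSO and 9.40, 9.03 and 10.9 FPKM in NC+VCR. Every VCR library exceeded every control, with a log2 fold change of 0.92 (SE 0.20, adjusted p = 0.00384). Both increases passed in all 22 alternative analyses.

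The falls were smaller and less secure. TNFRSF10A, on chromosome 8 (23190452 to 23225126, minus strand), read 11.4, 11.1 and 12.4 FPKM in NC+DMSO and 6.53, 7.57 and 7.54 FPKM in NC+VCR, without overlap. Its log2 fold change was -0.62 (SE 0.16, adjusted p = 0.0112). RIPK1, at chr6:3063991-3115187 on the plus strand, read 9.28, 8.28 and 10.6 FPKM in NC+DMSO and 5.26, 6.59 and 6.49 FPKM in NC+VCR, also without overlap (log2 fold change -0.54, SE 0.20, adjusted p = 0.0482). Most genes fell on this scale, and when libraries were rescaled by the median ratio over genes, which brought the median of all genes to -0.04, TNFRSF10A was at -0.27 (adjusted p = 0.232) and RIPK1 at -0.20 (adjusted p = 0.460), neither past the threshold. RIPK1 passed in 4 of 22 alternatives, and it lost its call without any 1 library other than PTPN21+VCR replicate 1. TNFRSF10A passed in 19 of 22.

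TNFRSF10B, on chromosome 8 (23020133 to 23069179, minus strand), read 5.86, 5.60 and 10.9 FPKM in NC+DMSO and 15.2, 10.8 and 7.17 FPKM in NC+VCR. The groups overlapped, and the log2 fold change of 0.51 (95% interval -0.12 to 1.14) did not pass the test (adjusted p = 0.186). With the median ratio scaling it was 0.86 and passed (adjusted p = 0.0328). CFLAR, at chr2:201116104-201176687 on the plus strand, read 16.1, 13.1 and 10.6 FPKM in NC+DMSO and 17.0, 7.55 and 17.6 FPKM in NC+VCR. Replicate 2 of NC+VCR stood below all controls and the other 2 above them, and the log2 fold change was 0.01 (95% interval -0.59 to 0.61). For FADD the interval was -0.57 to 0.50 and for TRADD -0.70 to 0.28, so changes within those bounds could not be told from none.

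**Figure D3:**
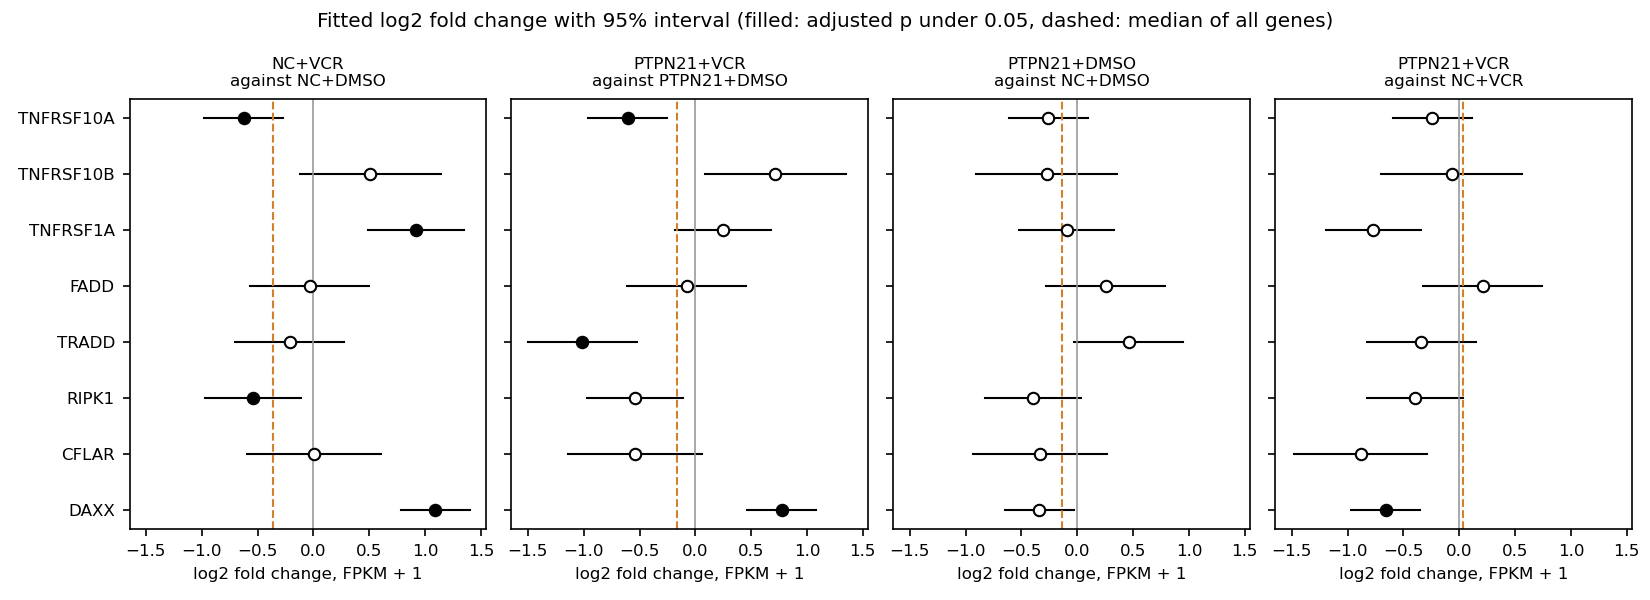
Fitted log2 fold changes on the log2(FPKM + 1) scale (horizontal axis) of the 8 tested members (vertical axis) in 4 comparisons, with 95% intervals as lines. Filled points passed an adjusted p of 0.05 and the dashed line is the median of all 11591 genes, which lies at -0.36 for VCR in control cells. DAXX is the 1 member filled in 3 of the 4 panels, on the right for VCR and on the left for PTPN21+VCR against NC+VCR.

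The same drug was then examined in cells carrying PTPN21. In PTPN21+VCR against PTPN21+DMSO, DAXX rose again, 1.72-fold, TRADD fell to 0.372 of its DMSO mean and TNFRSF10A to 0.622. These 3 of 8 tested members stood against 28.5% of all genes, 9.22% higher and 19.3% lower. The members' median log2 fold change was -0.31 against -0.17 over all genes.

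DAXX went from 50.5, 65.1 and 65.8 FPKM to 91.8, 114.4 and 105.4 FPKM (log2 fold change 0.77, SE 0.14, adjusted p = 0.00192), without overlap. TRADD, the adaptor that docks on TNFRSF1A, at chr16:67154180-67160298 on the minus strand, went from 3.66, 3.81 and 4.03 FPKM to 1.41, 1.92 and 0.948 FPKM. The groups did not overlap, and the log2 fold change was -1.01 (SE 0.22, adjusted p = 0.00573). DAXX passed in 22 of 22 alternatives and TRADD in all 21 that could test it. TRADD shares 126 exonic bases with FBXL8 on the opposite strand (mean 0.777 FPKM), and whether counting used the strand is not given in the sources used here. DAXX shares 441 exonic bases with the protein-coding gene AL662820.1 on the same strand, for which no FPKM above 0 was found.

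TNFRSF10A went from 9.22, 10.8 and 8.77 FPKM to 5.18, 6.89 and 5.82 FPKM, again without overlap, with a log2 fold change of -0.61 (SE 0.16, adjusted p = 0.0156). With the median ratio scaling it was -0.44 and missed the threshold (adjusted p = 0.0605), as it did without PTPN21+DMSO replicate 2 (adjusted p = 0.0656) or PTPN21+VCR replicate 1 (adjusted p = 0.0648). TNFRSF10B went from 4.27, 7.49 and 5.84 FPKM to 9.77, 10.0 and 10.4 FPKM. All 3 VCR libraries were above all 3 DMSO libraries, but the log2 fold change of 0.72 (95% interval 0.09 to 1.35) had an adjusted p of 0.0845, and of 0.0290 with the median ratio scaling. RIPK1 (6.06, 8.0 and 6.58 FPKM against 5.72, 4.10 and 3.58 FPKM) and CFLAR (11.6, 9.95 and 9.19 FPKM against 6.33, 7.83 and 6.02 FPKM) also had separate groups, at log2 fold changes of -0.54 each, with adjusted p values of 0.0599 and 0.163. RIPK1 passed in 2 of 22 alternatives, without PTPN21+VCR replicate 1 (adjusted p = 0.0355) and in limma without the trend (adjusted p = 0.0477). CFLAR also passed in 2, with only the compared groups fitted (adjusted p = 0.0376) and without NC+VCR replicate 2 (adjusted p = 0.0393). That library lies outside this comparison, and leaving it out kept the log2 fold change of CFLAR at -0.54 and changed only the estimated spread. TNFRSF10B passed in 3 of 22. Groups did not overlap in 6 of the 8 members, and in 50.4% of all genes. TNFRSF1A, at 4.63, 4.05 and 4.30 FPKM with DMSO and 5.10, 4.23 and 6.88 FPKM with VCR, overlapped, with a log2 fold change of 0.25 (95% interval -0.18 to 0.67, adjusted p = 0.379).

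Because TNFRSF10A and TNFRSF10B encode receptors of the same ligand, lie on the same chromosome and had no measured decoys beside them, their ratio within each library was taken, after the FPKM values had been seen. A ratio within a library does not change when the whole library is scaled by 1 factor. It was 1.94, 1.99 and 1.13 in NC+DMSO and 2.16, 1.44 and 1.5 in PTPN21+DMSO. With VCR it was 0.429, 0.702 and 1.05 in NC cells and 0.531, 0.689 and 0.558 in PTPN21 cells. All 6 DMSO libraries exceeded all 6 VCR libraries. The log2 ratio with VCR minus that with DMSO was -1.26 in NC cells and -1.51 in PTPN21 cells, a mean of -1.38, and lay between -1.54 and -1.22 without any 1 library. No test is given, since the ratio was chosen with these values in view. The ratio shows that the 2 genes changed unequally, not which of them moved. TNFRSF10A shares 266 exonic bases with AC100861.1 on the opposite strand (mean 2.83 FPKM), and its reads could in part be those of that gene.

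**Figure D4:**
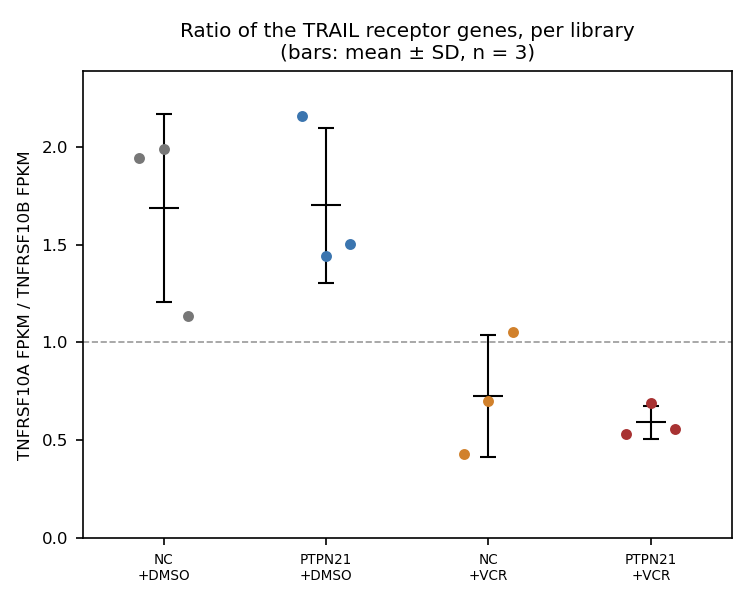
The vertical axis, from 0, gives TNFRSF10A FPKM divided by TNFRSF10B FPKM in each library, for the 4 groups along the horizontal axis, with mean ± SD bars (n = 3) and a dashed line at 1. The 6 DMSO libraries lie between 1.13 and 2.16 and the 6 VCR libraries between 0.429 and 1.05.

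To examine PTPN21 without the drug, PTPN21+DMSO was compared with NC+DMSO. No member passed limma's test at an adjusted p of 0.05, where 6.34% of all genes did, and 1 member of 8, DAXX, had an unadjusted p under 0.05, against 25.6% of all genes. DAXX was at 50.5 to 65.8 FPKM with PTPN21 and 66.2 to 89.2 FPKM without, which did not overlap, at a log2 fold change of -0.34 (95% interval -0.65 to -0.03, adjusted p = 0.157). TRADD differed in the other direction, with every PTPN21 library (3.66 to 4.03 FPKM) above every control (1.82 to 3.21 FPKM) and a log2 fold change of 0.46 (95% interval -0.03 to 0.95, adjusted p = 0.220). TNFRSF10A and RIPK1 were likewise separate and lower with PTPN21, at -0.26 and -0.40. Groups did not overlap in 4 of 8 members, against 33.4% of all genes. The members' median was -0.27 against -0.14 over all genes.

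The comparison of PTPN21+VCR with NC+VCR asked whether PTPN21 altered the members in drug-treated cells. DAXX was lower with PTPN21, at 0.633 of the NC+VCR mean, and was the 1 member of 8 to pass, where 1.82% of all genes passed and 0.82% were lower. The median of the 8 members was -0.37 against 0.03 over all genes, and 7 of 8 fold changes were below 0. Groups did not overlap in 2 of the 8, and in 22.5% of all genes. The study picked CFLAR, TNFRSF1A and DAXX from these same libraries as genes that decreased, so their direction here is not independent evidence. The same holds for the counts and the median of the 8 members, which include these genes.

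DAXX read 162.5, 168.3 and 161.5 FPKM in NC+VCR and 91.8, 114.4 and 105.4 FPKM in PTPN21+VCR. The groups did not overlap, and the log2 fold change was -0.66 (SE 0.14, adjusted p = 0.0418). It passed in 12 of 22 alternatives, with adjusted p values from 0.0215 to 0.140, and lost its call without any 1 of the 6 VCR libraries or without replicate 2 or 3 of PTPN21+DMSO. TNFRSF1A read 9.40, 9.03 and 10.9 FPKM in NC+VCR and 5.10, 4.23 and 6.88 FPKM in PTPN21+VCR, a mean ratio of 0.552. Its groups did not overlap either, but the log2 fold change of -0.77 (95% interval -1.20 to -0.34) had an adjusted p of 0.0698 and passed in none of 22 alternatives, where it ranged from 0.0524 to 0.216.

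CFLAR read 17.0, 7.55 and 17.6 FPKM in NC+VCR and 6.33, 7.83 and 6.02 FPKM in PTPN21+VCR. NC+VCR replicate 2 lay inside the PTPN21+VCR range, and the log2 fold change was -0.88 (95% interval -1.48 to -0.28, adjusted p = 0.122). Without that library it was -1.25 and passed (adjusted p = 0.0168), which no other alternative did. Relative to FADD, to which both CFLAR and the initiator caspases bind, CFLAR was at 1.31, 0.702 and 0.983 in NC+VCR and at 0.476, 0.458 and 0.343 in PTPN21+VCR. Without the drug this ratio was also separate, at 1.73, 0.680 and 0.714 in NC+DMSO and 0.631, 0.639 and 0.553 in PTPN21+DMSO. The ratio was not among the planned results, and the share of such ratios that separate by group over all genes was not taken. CFLAR alone overlapped between NC and PTPN21 cells with VCR and with DMSO, where 22.5% and 33.4% of single genes were separate. Relative to CASP8, CFLAR was at 1.24, 0.398 and 1.04 in NC+VCR and at 0.587, 0.625 and 0.501 in PTPN21+VCR, which overlapped. FADD itself held between 9.34 and 19.3 FPKM over all 12 libraries and passed the test in no comparison. Of its 1841 exonic bases, 1011 are shared with AP000879.1 on the opposite strand (mean 0.55 FPKM). The log2 fold changes of TRADD, RIPK1, TNFRSF10A and TNFRSF10B between the 2 drug-treated groups were -0.34, -0.39, -0.24 and -0.07, and none passed.

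Whether the response to VCR differed between the 2 kinds of cell was tested directly, as the interaction. No member passed, where 0.129% of all genes did, and 2 of 8 had an unadjusted p under 0.05, against 14.01% of all genes. They were TNFRSF1A, with an interaction of -0.67 (95% interval -1.28 to -0.07, adjusted p = 0.314), and TRADD, with -0.80 (95% interval -1.49 to -0.11, adjusted p = 0.296). TNFRSF1A therefore passed for VCR in control cells and not in PTPN21 cells, and TRADD the reverse, without a difference between responses that passed the test. The interaction of DAXX was -0.32 (95% interval -0.76 to 0.12). The comparisons share libraries, so their fold changes are not separate observations.

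Beyond the 10 members, 63 related genes of the table were followed and 41 of them reached the test. With VCR in control cells 13 of the 41 fell, near the 28.3% of all genes that did. In PTPN21 cells 4 rose and 6 fell, against 9.22% and 19.3% of all genes, and in PTPN21+DMSO against NC+DMSO 1 fell, where 6.34% of all genes passed in either direction. Between the drug-treated groups 1 rose, where 1.82% of all genes passed in either direction, and in the interaction none of the 41 passed in limma, with 8 at an unadjusted p under 0.05, as were 14.01% of all genes. The median log2 fold changes were -0.43, -0.19, -0.35, 0.06 and 0.27 in that order, against -0.36, -0.17, -0.14, 0.03 and 0.17 over all genes.

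At the caspase step, BID, which carries the caspase signal to mitochondria, was the 1 gene of 5 tested that passed in each kind of cell, where 36.2% and 28.5% of all genes passed. It read 14.8, 17.9 and 10.5 FPKM in NC+DMSO and 6.69, 9.14 and 6.21 FPKM in NC+VCR, without overlap, a log2 fold change of -0.87 (adjusted p = 0.00604). In PTPN21 cells it went from 24.8, 23.7 and 20.1 FPKM to 12.7, 11.3 and 12.9 FPKM, also without overlap, at -0.84 (adjusted p = 0.00865). CASP8 ranged from 8.53 to 18.9 FPKM and CASP10 from 1.52 to 5.38 FPKM, and neither passed in any comparison. Between the drug-treated groups CASP8 was lower with PTPN21, at 10.8 to 12.5 against 13.7 to 18.9 FPKM, without overlap. BID was higher there, at 11.3 to 12.9 against 6.21 to 9.14 FPKM, also without overlap, and 22.5% of all genes did not overlap. None of the 5 passed in limma, and 3 had an unadjusted p under 0.05, against 17.1% of all genes.

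In the complex that forms on TNFRSF1A, 7 of 14 tested partners fell with VCR in control cells, where 28.3% of all genes fell. Examples were TAB2, which links the kinase TAK1 to ubiquitin chains, at -1.35 (adjusted p = 0.00399), its relative TAB3, at -1.22 (adjusted p = 0.00577), and RNF31, a subunit of the linear ubiquitin ligase, at -1.22 (adjusted p = 0.0453). RNF31 overlapped, at 5.88, 12.4 and 7.52 FPKM in NC+DMSO and 1.35, 2.21 and 7.19 FPKM in NC+VCR. Related genes are given in the main setting only. Over all genes, the median ratio scaling cut the lower calls of this comparison from 3275 to 1361. In PTPN21 cells 1 rose and 2 fell, where 9.22% of all genes rose and 19.3% fell. TRAF5, an adaptor of TNF receptors, went from 2.61 to 3.03 FPKM to 8.29 to 9.03 FPKM (log2 fold change 1.36, adjusted p = 0.000505), and SHARPIN, another subunit of that ligase, went from 37.3 to 44.5 FPKM to 17.2 to 18.5 FPKM (-1.13, adjusted p = 0.00459). Between the 2 drug-treated groups none of the 14 passed in limma, and 0 had an unadjusted p under 0.05, against 17.1% of all genes. In PTPN21+DMSO against NC+DMSO none passed either, but 9 of the 14 had an unadjusted p under 0.05, against 25.6% of all genes. The median log2 fold change there was -0.50 against -0.14 over all genes. For the interaction none passed, and 6 had an unadjusted p under 0.05, against 14.01% of all genes.

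Among brakes on this pathway, TNIP1, a ubiquitin-binding partner of TNFAIP3, fell in both kinds of cell. It went from 68.9 to 80.3 FPKM to 23.4 to 44.4 FPKM in NC cells and from 70.3 to 75.7 FPKM to 20.6 to 23.0 FPKM in PTPN21 cells, where its log2 fold change was -1.73 (adjusted p = 5.09e-05). In PTPN21 cells TNFAIP3 and TAX1BP1 rose, and in control cells 1 of the 5 tested brakes passed, TNIP1, against 28.5% and 36.2% of all genes. Of 3 necroptosis genes none reached the test, and RIPK3, the kinase that acts after RIPK1 in necroptosis, was listed at 0 in all 12 libraries.

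Among death domain proteins and their regulators, 3 of 8 fell with VCR in control cells and 1 of 8 in PTPN21 cells, against 28.3% and 19.3% of all genes. MADD, a death domain protein that binds TNFRSF1A, was the 1 related gene to pass in PTPN21+DMSO against NC+DMSO, at 4.76 to 8.64 FPKM against 13.0 to 20.7 FPKM (log2 fold change -1.13, adjusted p = 0.0418). Of 7 tested DAXX partners, 1 fell with VCR in control cells (H3-3A), and in PTPN21 cells H3-3A fell and H3-3B rose, where 9.22% of all genes rose. H3-3B, which encodes the same H3.3 protein as H3-3A, was the partner that passed between the drug-treated groups, at 104.3, 147.6 and 124.0 FPKM in PTPN21+VCR and 75.2, 80.4 and 78.1 FPKM in NC+VCR (log2 fold change 0.67, adjusted p = 0.0490), a direction opposite to that of DAXX.

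Over the 12 libraries, the genes whose log2(FPKM + 1) ran most like that of DAXX were PTMS (Pearson r = 0.970), the mitotic kinase gene PLK1 (r = 0.970) and the nucleolar gene NPM1 (r = 0.961). For TNFRSF10B they were EDEM1 (r = 0.941), a gene of the endoplasmic reticulum, AC016925.3 (r = 0.938) and BMS1P7 (r = 0.912). These are the highest of 11591 genes over 12 libraries in 4 groups, and values of a library share its scale and depth, so they are given as a description. PLK1 followed the same order of group means as DAXX, at 78.7 FPKM in NC+VCR, 54.4 in PTPN21+VCR, 33.1 in NC+DMSO and 25.1 in PTPN21+DMSO.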

How the data were processed

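Total RNA of 12 libraries was sequenced by the authors, who deposited FPKM values per gene for all libraries in a single table of 60671 genes with human Ensembl identifiers. The aligner and counter behind the FPKM are not given in the paper. The submitters' processing notes list fastp, Bowtie2 and the build mm10, a mouse build that does not match the human identifiers. No counts were used. Depth was estimated from the spacing of low FPKM values in single-exon genes, searched between 10000000 and 25000000 fragments, a range narrowed after a wider search gave doubled values for 2 libraries. Between 31.4% and 43.2% of low values fell within 0.1 of a whole number of fragments, so the estimate is rough and no count test was run, nor the alternatives planned for counts.

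Genes with a mean of at least 1 FPKM (11591) were tested with limma 3.58.1 in R 4.3.3 on log2(FPKM + 1), in a model of 4 group means with an intensity trend, for 5 comparisons, with Benjamini-Hochberg adjustment over all genes tested and a threshold of 0.05. Members below 1 FPKM were compared by exact permutation. Positions are from GENCODE release 29 on GRCh38, in which 96.3% of identifiers were found. On simulated data for PTPN21+VCR against NC+VCR (11591 genes), 42% of log2 changes of 1 and 89% of changes of 2 were recovered, and 3.68% of calls were false. The simulated noise was independent between genes and libraries, without differences in depth or scale. These shares therefore do not carry over to the calls in the real libraries.

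The members and lists were chosen with earlier results of these data known. Of the genes the lists were built from, 1 is not reported here. All 10 members were named, with PTPN21, a fixed set of 8 related genes, up to 3 related genes of largest change per comparison and the 3 genes most like DAXX and TNFRSF10B. Genes beyond this rule (CD3D, LCK, CD28, CD247, LYZ, SPI1, H3-3A, TNFAIP3, TAX1BP1 and genes that overlap members) were named after their values were seen. Libraries with the same replicate number did not deviate together (18 pairs, r from -0.145 to 0.0583), so no pairing was used. Alternatives changed the pseudocount, filter, scaling, trend, moderation, groups fitted and block, and left out each library in turn.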

Additional observations from a re-analysis of the deposited data

How the results depend on the processing

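Of 387 member fold changes recomputed with another setting, 351 kept their direction and side of the threshold, 14 lost the threshold, 7 gained it and 15 turned direction. Leaving out 1 library gave 429, 21, 3 and 27 of 480. The cause of these changes was not tested. Fitting the compared groups alone, which leaves fewer libraries for the spread, gave 2 members for VCR in control cells and 5 in PTPN21 cells. For PTPN21+VCR against NC+VCR, no filter gave 0 members and limma without the trend 0. Without 1 library, the members called ranged from 3 to 4 and from 2 to 4 for VCR in control and PTPN21 cells, 0 to 0 and 0 to 1 for PTPN21 with DMSO and with VCR, and 0 to 0 for the interaction. Same-numbered libraries were not paired, and with the replicate block the members called were 3, 3, 0, 1 and 0, RIPK1 losing its call (adjusted p = 0.0803).

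The fold changes that turned direction belonged to members that had not passed. With the median ratio and quantile scalings, for VCR in control cells, FADD was at 0.33 and 0.32 and TRADD at 0.058 and 0.20. For VCR in PTPN21 cells FADD was at 0.10 and 0.11, for PTPN21+DMSO against NC+DMSO TNFRSF1A at 0.058 and 0.10, and for the interaction TNFRSF10A at -0.17 and -0.17 and RIPK1 at -0.18 and -0.20. TPM scaling put CFLAR at -0.10 for VCR in control cells and FADD at 0.038 for the interaction, and a pseudocount of 0.1 put RIPK1 at -0.020 there. Without 1 library, for VCR, FADD ranged from -0.30 to 0.19 and CFLAR from -0.18 to 0.37 in control cells, and FADD from -0.15 to 0.040 in PTPN21 cells. For PTPN21 with DMSO, TNFRSF10B ranged from -0.44 to 0.0022, TNFRSF1A from -0.16 to 0.015 and FADD from -0.0089 to 0.48, and with VCR, TNFRSF10B from -0.32 to 0.17. Interactions ranged from -0.078 to 0.098 for TNFRSF10A, -0.070 to 0.45 for TNFRSF10B, -0.27 to 0.22 for FADD and -0.15 to 0.12 for RIPK1.

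Over all genes, calls moved more. The 4192 and 3308 genes for VCR in control and PTPN21 cells became 2674 to 4553 and 2353 to 4157 over all alternatives, the 735 and 211 for PTPN21 with DMSO and with VCR 40 to 1345 and 43 to 354, and the 15 of the interaction 7 to 30. The lowest counts for PTPN21 without 1 library were 67 with DMSO (without PTPN21+DMSO replicate 1) and 43 with VCR (without PTPN21+VCR replicate 2). Higher genes were 21.9% of calls for VCR in control cells, 32.3% for VCR in PTPN21 cells and 41.8% for PTPN21 with DMSO, and 55.8%, 52.3% and 73.4% with the median ratio scaling. FAS and FASLG were too low for the test across genes.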
